A study of Medicago sativa with 9 samples.

Results

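Of 64684 predicted long non-coding RNAs (lncRNAs) measured in alfalfa leaves, 190 were listed at 0 in all 3 control libraries and above 0 in each of the 6 libraries from selenite-sprayed plants, with an average of at least 0.5 FPKM over those 6. They are called selenite-only transcripts here, a name that describes these 9 listings and not an absence of the RNA in control leaves. The level used is FPKM, the number of fragments per kilobase of transcript, scaled to the mapped fragments of the library, as deposited, with the listed value 0.0001 read as 0. They were selected on these levels, and on nothing else, so the contrast of selenite with control is described below and not tested. Genome position, structure and neighbouring transcripts did not enter the selection. The direction of the contrast of the doses did not enter either, but the demand for values above 0 at both doses limits that contrast.

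The plants were field-grown alfalfa (Medicago sativa L., cultivar Kangsai), a perennial forage legume. At a height of 20 cm they were divided into 3 groups of 3 samples and sprayed 3 times, at intervals of 7 days. The labels do not say what the control plants (CK) were sprayed with, and the series text counts 3 selenite concentrations, so it is not certain that control received none. Low Se plants were sprayed with selenite at 100 mg/L and high Se plants at 500 mg/L, and rRNA-depleted total RNA of leaves was sequenced. Whether the libraries within a group stem from different plants is not stated, and p-values therefore speak of the spread among these libraries, which may be technical. The table lists lncRNAs alone, so the leaf identity of the samples was not checked with marker genes. In such bulk samples, fewer cells of a type and less RNA per cell cannot be told apart.

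LncRNAs are transcripts without a predicted protein product. Known plant lncRNAs act in several ways: as antisense RNAs at the gene on the opposite strand, as decoys that bind microRNAs, as precursors of small RNAs, or in the recruitment of chromatin proteins. They are typically transcribed at low levels and in few tissues or conditions. Selenite is an inorganic form of selenium; plants take it up partly through phosphate transporters and reduce it to selenide, which enters the sulfur pathway in place of sulfide and can end up in selenocysteine and selenomethionine. None of the 190 has an assigned function in the files, and 0 of the 59 host gene names given for them matched the RefSeq gene table at hand, so the roles of host genes are not given.

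Depth matters for any listing of 0. Aligned sequence, taken as coverage over FPKM, came to 1.44 to 2.78 gigabases in the control libraries, 1.68 to 2.65 in low Se and 2.07 to 2.97 in high Se. The number of listed transcripts above 0 was 34512, 29508 and 26121 in control 1 to 3, 30877, 33443 and 28093 in low Se and 33064, 36453 and 35759 in high Se. Control 3 thus had the fewest although its aligned sequence exceeded that of 7 other libraries. With reads of 141 bases, an estimate from the coverage values, a single read on a transcript of the median selenite-only length (375.5 bases) corresponds to 0.147, 0.261 and 0.135 FPKM in control 1 to 3. The median selenite-only transcript had 1.37, 1.36 and 1.48 FPKM in high Se 1 to 3 and 1.62, 1.64 and 1.40 FPKM in low Se 1 to 3, or 8.05, 10.8 and 10.02 estimated reads in high Se and 7.18, 12.9 and 8.17 in low Se. Their lowest selenite library was much thinner: the median of the lowest value was 2.15 estimated reads, and 34 of the 190 had at least 5 estimated reads in each of the 6 libraries. The table holds no counts, so no counting interval is given.

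**Figure D1:**
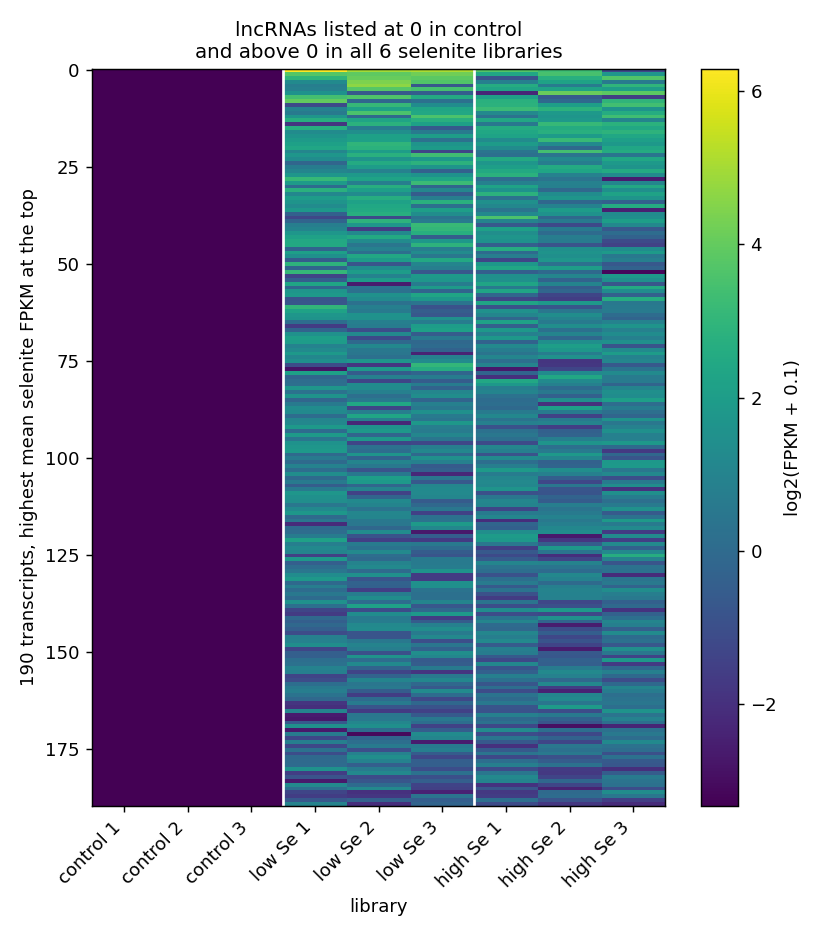
Levels of the 190 selenite-only transcripts as log2(FPKM + 0.1), with libraries in columns and transcripts in rows ordered by mean selenite FPKM. The 3 control columns are at the floor by the selection, and within a row the 6 selenite libraries differ widely, with a median ratio of the highest to the lowest FPKM of 9.33.

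The same selection was applied to each of the 84 possible sets of 3 libraries, asking how many transcripts were at 0 in the set and above 0 in the other 6. The 3 control libraries gave 190 transcripts, the 3 low Se libraries 129 and the 3 high Se libraries 38. The median over the 84 sets was 50, with a range of 14 to 251. Sets that mixed groups gave more than the control set in 2 cases: control 2, control 3 and low Se 1 gave 251 transcripts, and control 2, control 3 and low Se 3 gave 246. Over the 28 sets that hold a given library the median was highest for control 3 (79) and lowest for high Se 2 (35), the libraries with the fewest and the most listed transcripts. The control set therefore stands at rank 3 in this order, and no test is attached to it.

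**Figure D2:**
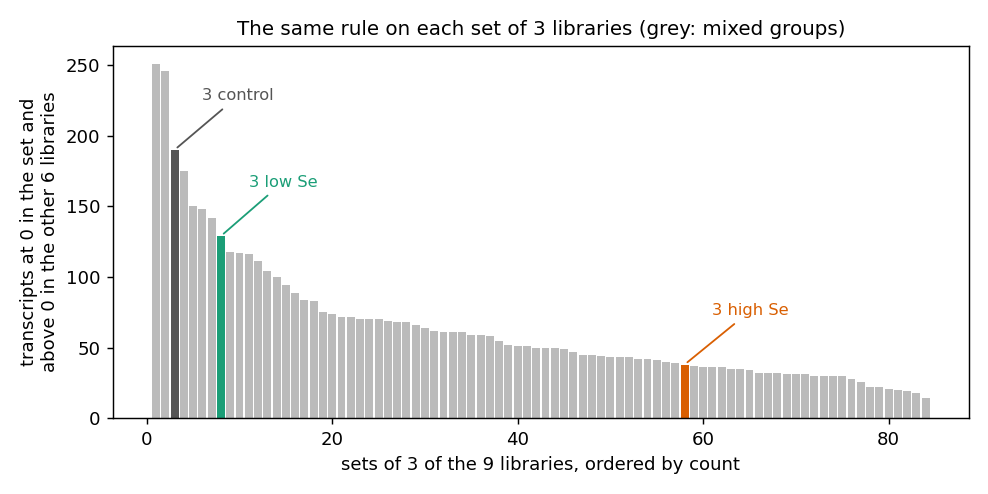
Number of transcripts at 0 in a set of 3 libraries and above 0 in the other 6 with a mean of at least 0.5 FPKM, for all 84 sets in falling order; grey bars are sets of mixed groups. The control set (190) is bar 3 from the left, the low Se set (129) is bar 8, and the high Se set (38) lies below the median of 50.

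The 190 were the end of a gradient. Among transcripts above 0 in all 6 selenite libraries and averaging at least 0.5 FPKM there, 7442 were above 0 in all 3 control libraries, 2288 in 2 of them, 806 in 1 and 190 in none. In the 806, the control library above 0 was control 1 in 460 cases, control 2 in 237 and control 3 in 109. That single control value had a median of 1.45 FPKM, beside a median selenite mean of 1.77 FPKM, and was at or above the transcript's own selenite mean in 312 of the 806. Among transcripts at 0 in all control libraries with an average of at least 0.5 FPKM in selenite leaves, 576 were above 0 in 5 selenite libraries and 2245 in a single one. Leaving a library out of the selection raised the number of 190 to 650 without control 1, 427 without control 2 and 299 without control 3. It became 321 without low Se 1, 336 without low Se 3 and 254 to 276 without any of the other 4, since a condition on fewer libraries is easier to meet.

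The threshold of 0.5 FPKM removed nothing, as no transcript with this pattern of zeros had a lower mean. The lowest 3 were the intergenic MSTRG.132060.1 (mean selenite level 0.572 FPKM, chromosome 7.3, 48832438 to 48832777), MSTRG.49661.1 (0.600 FPKM, chromosome 3.1, 86611228 to 86611855) and MSTRG.26447.1 (0.686 FPKM, chromosome 1.4, 78744693 to 78745269). Most of the 190 were low: the median of the selenite mean was 1.71 FPKM with quartiles of 1.25 and 2.54, 64 reached 2 FPKM, 12 reached 5 FPKM and 2 reached 10 FPKM. Coordinates are those of the deposited table, whose genome build is not given in the sources used here.

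The most abundant was the intergenic MSTRG.69946.1, a single exon of 1148 bases without strand on chromosome 4.1 (49415291 to 49416438). It had 13.0, 9.82 and 0.315 FPKM in high Se and 78.4, 30.7 and 34.0 FPKM in low Se. All 3 low Se values lay above the high Se values, and high Se 3 was far below the other 5 libraries. MSTRG.15485.1, also intergenic, is a single exon of 499 bases on the minus strand of chromosome 1.2 (73612197 to 73612695). Its levels were 5.00, 11.1 and 3.23 FPKM in high Se and 13.4, 14.7 and 18.6 FPKM in low Se, again without overlap between the doses, and it had at least 28.5 estimated reads in each selenite library, which makes it among the best covered. These were the only 2 of the 190 with a mean above 10 FPKM.

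Another 4 of the 8 most abundant were single-exon intergenic transcripts of 236 to 375 bases. MSTRG.147373.1 (chromosome 8.2, 59463173 to 59463426) had 0.454, 6.57 and 12.8 FPKM in high Se and 7.65, 16.6 and 14.4 FPKM in low Se. MSTRG.34294.1 (chromosome 2.2, 53353440 to 53353689) had 6.11, 1.52 and 7.78 FPKM in high Se and 1.63, 25.5 and 0.515 FPKM in low Se. In both the doses overlapped, and in MSTRG.34294.1 low Se 2 alone held the highest value. MSTRG.51102.1 (chromosome 3.2, 17884861 to 17885235, minus strand) was even in high Se, with 4.99, 4.60 and 4.02 FPKM, and uneven in low Se, with 1.76, 13.6 and 10.9 FPKM. MSTRG.102349.1 (chromosome 5.4, 12282458 to 12282693) had 4.47, 0.581 and 0.233 FPKM in high Se, all below the 10.7, 12.4 and 5.80 FPKM in low Se.

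**Figure D3:**
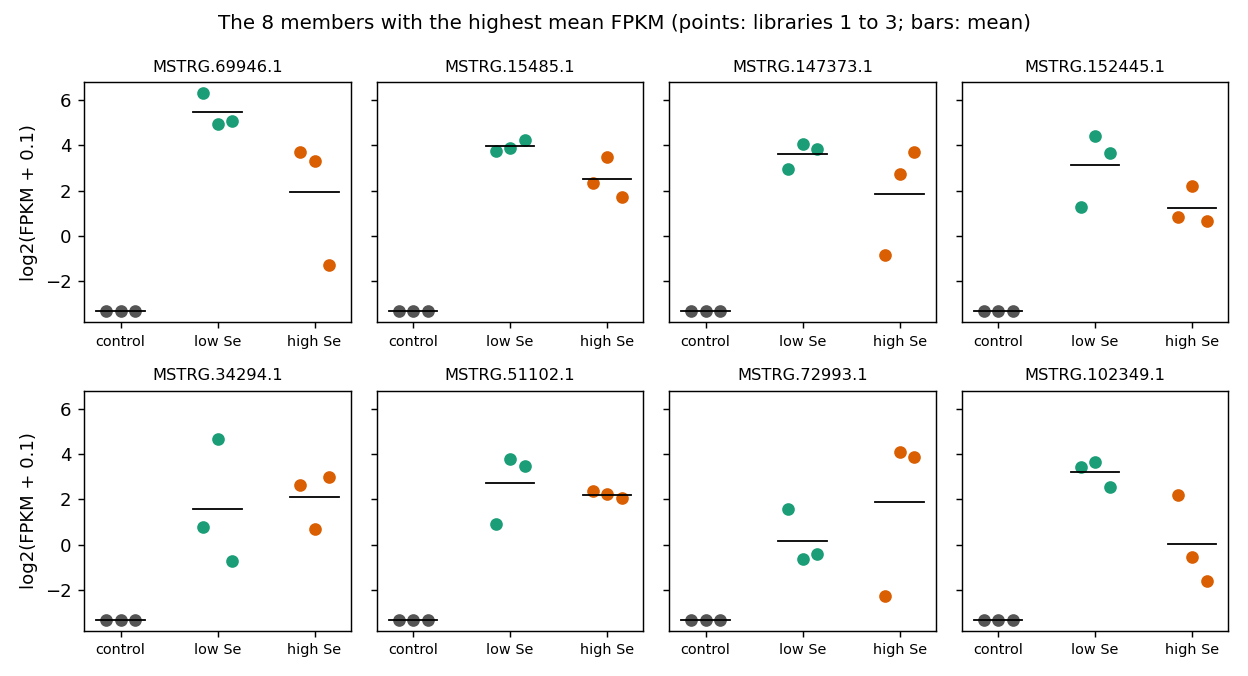
Levels of the 8 selenite-only transcripts with the highest mean, as log2(FPKM + 0.1), in control leaves, low Se and high Se leaves. Points are libraries and bars are means of the log2 values; control is at the floor by the selection, and MSTRG.69946.1, MSTRG.15485.1 and MSTRG.102349.1 have all low Se points above the high Se points.

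Antisense transcripts lie on the opposite strand of an annotated gene, and 7 of the 190 were of this kind. The most abundant, MSTRG.152445.1, has 2 exons (813 bases, chromosome 8.3, 57036924 to 57132682, minus strand, host gene MS.gene88410). It had 1.70, 4.56 and 1.46 FPKM in high Se and 2.32, 21.0 and 12.6 FPKM in low Se, so that the doses overlapped. Its exons fill a small part of a long interval, and its junction was not checked.

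The locus opposite MS.gene45098 on chromosome 5.3 held 2 antisense selenite-only forms. MSTRG.98746.1, with 8 exons and 955 bases (24063304 to 24069326, minus strand), is the most spliced of the 190 and had 2.20, 3.62 and 6.02 FPKM in high Se and 1.42, 11.7 and 5.28 FPKM in low Se. MSTRG.98746.3, with 3 exons and 645 bases (24063304 to 24065095), had 3.74, 2.31 and 3.35 FPKM in high Se and 4.32, 7.66 and 3.08 FPKM in low Se, with at least 29.8 estimated reads per library, the highest minimum of the 190. Another form, MSTRG.98746.2, was also at 0 in all control libraries, had 6.27, 1.29 and 1.64 FPKM in high Se and 0, 0.219 and 6.72 FPKM in low Se, and was left out of the 190 by its 0 in low Se 1. All 3 listed forms of this spliced antisense locus were thus at 0 in control, 2 of them by the selection. MSTRG.98746.2 was picked after its values were seen. Reads shared among the forms are divided by the assembler, so single forms are less certain than the locus.

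Intronic transcripts lie within an intron of a host gene, and 43 of the 190 were of this kind. Where no strand is given, such a transcript and unspliced RNA of its host cannot be told apart. The most abundant, MSTRG.72993.1 (772 bases without strand, host gene MS.gene09193, chromosome 4.2, 14947778 to 14948549), had 0.108, 16.8 and 14.7 FPKM in high Se and 2.92, 0.551 and 0.642 FPKM in low Se. High Se 2 and high Se 3 were high and high Se 1 was the lowest of all 6, so that the doses overlapped.

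Sense-overlapping transcripts share exon sequence with a gene on its own strand and made up 6 of the 190; junction-sharing ones use a splice junction of an annotated gene and made up 5. MSTRG.55803.1, the most abundant sense-overlapping one (2 exons, 438 bases, chromosome 3.3, 10472186 to 10478632, host gene MS.gene039687), had 1.24, 10.5 and 5.96 FPKM in high Se and 2.01, 3.97 and 0.304 FPKM in low Se. The junction-sharing MSTRG.136570.1 (2 exons, 434 bases, chromosome 7.4, 39484129 to 39484894, minus strand, host gene MS.gene055160) was the most even of the 190. It had 4.65, 3.75 and 5.26 FPKM in high Se and 2.98, 4.34 and 4.03 FPKM in low Se, a ratio of the highest to the lowest value of 1.77. Of the other spliced transcripts with many exons, the junction-sharing MSTRG.152533.2 (5 exons, 654 bases, chromosome 8.3, 58521966 to 58526109, host gene MS.gene88509) had 1.13, 0.672 and 2.45 FPKM in high Se and 2.95, 1.03 and 2.496 FPKM in low Se. The intergenic MSTRG.57002.1 (4 exons, 1409 bases, chromosome 3.3, 43568325 to 43571533) had 2.90, 0.842 and 2.66 FPKM in high Se and 6.85, 4.20 and 2.04 FPKM in low Se.

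Evenness was uncommon. The median ratio of the highest to the lowest selenite library was 9.33 among the 190, beside 5.97 among the 10698 tested transcripts above 0 in all 6 selenite libraries, which are more abundant (median selenite mean 2.34 FPKM before the test's filter). The ratio was below 3 in 9 of the 190. After MSTRG.136570.1, the most even with a mean of at least 1 FPKM were the intergenic MSTRG.47315.1 (chromosome 3.1, 57088262 to 57088965), the intronic MSTRG.137525.1 (host gene MS.gene000584, chromosome 7.4, 66836431 to 66837269) and the intergenic MSTRG.55186.1 (chromosome 3.2, 92734374 to 92734620). MSTRG.47315.1 had 1.21, 1.22 and 1.13 FPKM in high Se and 0.977, 2.20 and 1.54 FPKM in low Se. MSTRG.137525.1 had 2.05, 1.81 and 1.13 FPKM in high Se and 0.908, 1.996 and 1.10 FPKM in low Se, and MSTRG.55186.1 had 1.93, 1.64 and 1.46 FPKM in high Se and 1.31, 1.91 and 0.841 FPKM in low Se. In each of the 3 the doses overlapped.

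The contrast of the doses asks whether these transcripts differ between 500 and 100 mg/L. Its direction was not used in the selection. Transcripts at 0 in any selenite library were left out, however, which limits how far the doses can differ here. None of the 185 that passed the filter of the test (a mean of at least 0.5 FPKM over all 9 libraries) was called at a limma adjusted p below 0.05, where 9 of 43763 transcripts were called in all (0.0206%). The other 5 of the 190 had a lower mean over 9 libraries and were not tested. An unadjusted limma p below 0.05 was reached by 4 of the 185, against 3430 of all tested (7.84%). All 4 were lower in high Se, where 2.61% of all tested were lower and 5.23% higher at this p. The count of 0 called stood in each of the 17 alternatives run, among them the 9 fits without a library. It was also 0 among all 10698 tested transcripts above 0 in the 6 selenite libraries, so it is not particular to the 185. The count of 4 did not: it ranged from 1 to 15 over the same alternatives. It was 15 of 185 with a pseudocount of 1 FPKM (8.11%, beside 7.87% of all tested) and 1 of 185 with a pseudocount of 0.01 FPKM (0.541%, beside 8.25%). It was also 1 without high Se 3, and 11 of 190 in a fit of the 6 selenite libraries alone (5.79%, beside 7.98%). The share below that of all tested thus depended on the pseudocount.

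The limma fit of all 9 libraries takes part of its spread from control values that the selection had fixed at 0, so its SEs and p-values for these transcripts rest partly on the selection. The median residual SD of the selenite-only transcripts was 0.87 on the log2(FPKM + 0.1) scale in that fit. It was 1.07 in the fit of the 6 selenite libraries alone, which does not use the control values. These SDs precede the step in which limma draws each spread toward a trend over all tested transcripts. The SEs behind the p-values follow that step and were larger with all 9 libraries for the 4 transcripts named next. They were 1.14 against 1.03 for MSTRG.69946.1 and 1.20 against 0.961 for MSTRG.102349.1. They were also 1.26 against 0.998 for MSTRG.136924.1 and 1.29 against 1.03 for MSTRG.132904.1. For MSTRG.71112.2 they were 1.475 and 1.478. A p that misses the threshold does not show equal levels, and for a single transcript the interval of the difference is wide.

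The transcripts lower in high Se were MSTRG.69946.1, MSTRG.102349.1, MSTRG.136924.1 and MSTRG.132904.1. For MSTRG.69946.1, with values given above, the difference of high Se from low Se was -3.53 ± 1.14 (SE) on the log2(FPKM + 0.1) scale, with a limma adjusted p of 0.461. MSTRG.136924.1 lies in an intron of MS.gene46865 (1568 bases, chromosome 7.4, 46748517 to 46750084) and had 0.990, 1.21 and 0.0655 FPKM in high Se and 8.58, 4.69 and 4.95 FPKM in low Se, where limma gave an adjusted p of 0.557. The intergenic MSTRG.132904.1 (205 bases, chromosome 7.3, 72821967 to 72822171) had 0.657, 0.448 and 0.274 FPKM in high Se and 5.59, 1.26 and 7.27 FPKM in low Se, with a limma adjusted p of 0.620. The adjusted p for MSTRG.102349.1 was 0.537 in the same limma fit. All 4 had doses that did not overlap, and none passed the test. In the fit of the 6 selenite libraries alone, their limma adjusted p-values were 0.395 for MSTRG.69946.1, 0.413 for MSTRG.102349.1, 0.422 for MSTRG.136924.1 and 0.510 for MSTRG.132904.1.

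In the other direction, the largest differences among transcripts with separate doses were those of 3 strandless single-exon transcripts and of MSTRG.56697.1, described below. MSTRG.134979.1, in an intron of MS.gene072381 (chromosome 7.4, 16016269 to 16016621), had 5.28, 2.32 and 1.498 FPKM in high Se and 0.980, 0.302 and 0.600 FPKM in low Se, a difference of 2.03 ± 1.28 (SE) on the log2(FPKM + 0.1) scale. MSTRG.84503.1, in an intron of MS.gene28690 (chromosome 4.4, 22331816 to 22332150), had 5.67, 4.95 and 5.85 FPKM in high Se and 2.0005, 1.79 and 0.689 FPKM in low Se. The intergenic MSTRG.127681.1 (chromosome 7.2, 68463049 to 68463510) had 3.64, 2.56 and 1.30 FPKM in high Se and 0.987, 0.446 and 0.649 FPKM in low Se. Limma adjusted p-values of these 3 were 0.659 to 0.797, so none was called.

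Over the group, which gets no test of its own, the differences between the doses lay on both sides of 0 with a small median. Single differences ran from -3.53 to 2.35 on the log2(FPKM + 0.1) scale. All 3 high Se values lay above the low Se values in 10 of the 185 tested (5.41%), beside 7.31% of all 43763 and 8.18% of the 10698 tested transcripts above 0 in all 6 selenite libraries. All 3 low Se values lay above the high Se values in 15 (8.11%), beside 3.94% and 5.82%. The difference of high Se from low Se was positive in 87 of the 185 (47.0%) and in 55.9% of all tested transcripts. Its median was -0.10 on the log2(FPKM + 0.1) scale among the 185, 0.20 over all tested and 0.09 over those 10698. With median-of-ratios scaling these medians were -0.20 among the selenite-only transcripts tested and 0.08 over all tested, so part of the general shift moves with the scaling. The median of the 185 was small. Among the selenite-only transcripts tested it turned to 0.03 without low Se 2 and to 0.02 without high Se 2. Over all tested transcripts it was 0.31 and 0.11 in these fits.

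**Figure D4:**
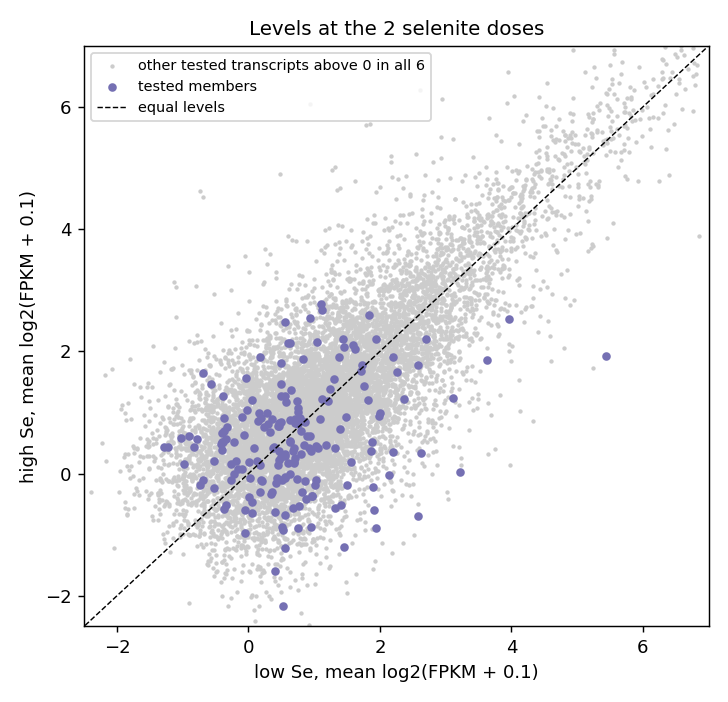
Mean log2(FPKM + 0.1) over the 3 high Se libraries against that over the 3 low Se libraries, for the 185 tested selenite-only transcripts (purple) and the other tested transcripts above 0 in all 6 selenite libraries (grey); the dashed line marks equal levels. The purple points spread on both sides of the line, with 87 of 185 above it, and lie toward the low end of the grey ones.

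Against control the selection fixed the direction, so counts are given for completeness only. Low Se against control called 2 of the 185 in limma, MSTRG.15485.1 and MSTRG.69946.1, both higher in low Se, where 12 of 43763 transcripts were called in all (0.0274%) and 5 of them were higher (0.0114%). High Se against control called MSTRG.15485.1 alone, where 10 were called in all (0.0229%) and 8 were higher (0.0183%). The 2 comparisons share the control libraries. The low Se count became 3 without low Se 1, 1 without any of control 1, control 2, control 3 or high Se 2, 0 without low Se 2 or low Se 3 7 without the filter and 0 with an untrended variance. The high Se count stayed at 1 without control 1, became 0 without any other library, with an untrended variance or with a pseudocount of 0.01 or 1 FPKM, and 3 without the filter. Nothing about the 190 is read from these counts.

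The class, exon number, strand and length of the 190 did not enter the selection. Intergenic transcripts made up 67.9% of the 190 and 69.3% of all 64684, intronic ones 22.6% and 22.1%, junction-sharing ones 2.63% and 4.24%, sense-overlapping ones 3.16% and 2.52% and antisense ones 3.68% and 1.88%. In the 10726 transcripts above 0 in all 6 selenite libraries with a mean of at least 0.5 FPKM, the shares were 62.0% intergenic, 24.9% intronic, 5.07% junction-sharing, 4.89% sense-overlapping and 3.16% antisense. The antisense share of the 190 was thus near that of these 10726, and the sense-overlapping share lay below theirs. Both shares of the 190 rest on few transcripts, 7 and 6. The 10726 share detection at both doses with the 190 and differ from them in strand and length, given below. A single exon was listed for 76.3% of the 190 for 78.9% of all and for 71.0% of those 10726. No strand was given for 66.3% of the 190, 71.1% of all and 45.01% of the 10726. The median length was 375.5 bases in the 190, 313 bases over all and 535.5 bases in those 10726. The selections with low Se or high Se in the place of control had medians of 392 and 366.5 bases and no strand in 66.7% and 73.7%, side by side with the 190. No test was made of these shares.

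The 190 came from 188 loci spread over all 8 chromosome groups. Chromosome group 4 held 30 of them, group 3 held 29, group 2 held 15 and the others 21 to 23, and 6 lay on scaffolds. Among the 4 homologous copies of each chromosome in the table (copies 1 to 4) the counts were 47, 47, 46 and 44. Over all transcripts group 4 held 12.4% and group 2 held 10.4%, beside 15.8% and 7.89% of the 190. Reads may be divided among such copies, which makes the level of any single copy uncertain.

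At 12 of the 188 loci, another listed form was above 0 in at least 1 control library, so that the selection describes a form and not the locus. The total FPKM of the forms at locus MSTRG.136570, home of the most even transcript, was 7.12, 0 and 0 in control leaves, 9.72, 10.9 and 17.2 in low Se and 10.02, 9.52 and 14.5 in high Se. Its control value came from MSTRG.136570.3, a form of 2 exons and 373 bases. At locus MSTRG.56386 the intergenic MSTRG.56386.2 had 3.41, 1.08 and 1.79 FPKM in high Se and 0.749, 0.378 and 4.37 FPKM in low Se. Its companion MSTRG.56386.1 had 1.32, 5.62 and 2.30 FPKM in control leaves, 1.40, 1.07 and 6.08 in low Se and 0.280, 8.38 and 13.3 in high Se, so this locus was listed in all 9 libraries.

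Similar cases were found elsewhere. MSTRG.13702.3 (chromosome 1.2, 49500769 to 49503001, 2 exons) had 0.479, 0.0885 and 0.380 FPKM in high Se and 1.05, 2.19 and 0.254 FPKM in low Se. The forms of its locus summed to 12.1, 4.59 and 1.46 FPKM in control leaves, 4.88, 3.77 and 1.13 in low Se and 0.672, 19.0 and 6.53 in high Se. At locus MSTRG.71112, home of MSTRG.71112.2 (chromosome 4.1, 78332438 to 78332843, 2 exons), the sum was 0.133, 0 and 1.16 FPKM in control leaves, 7.77, 4.50 and 2.81 in low Se and 3.66, 1.49 and 3.78 in high Se. At the antisense locus MSTRG.152445 the sum was 0, 0.897 and 0 FPKM in control leaves, 3.11, 26.4 and 16.5 in low Se and 7.05, 4.68 and 1.46 in high Se. These sums kept every selenite library above the control libraries at loci MSTRG.71112, MSTRG.152445 and MSTRG.136570 and did not at MSTRG.56386 and MSTRG.13702. The sums include the selenite-only form, so part of this order was set by the selection. Taken alone, MSTRG.71112.1 kept the order, with at most 1.16 FPKM in control and at least 1.46 in selenite leaves. MSTRG.136570.3 did not, with 7.12 FPKM in control 1 and 5.37 in high Se 1. MSTRG.152445.2 did not either, with 0.897 FPKM in control 2 and 0 in high Se 3. Of the 20 loci with more than 1 listed form, 8 were at 0 in control over all forms, and 168 loci had a single listed form.

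Locus MSTRG.118470 held 2 intronic selenite-only forms in MS.gene76127 (chromosome 6.4). MSTRG.118470.1 (53825605 to 53829848, 1018 bases) had 0.704, 2.66 and 2.72 FPKM in high Se and 3.86, 0.888 and 0.859 FPKM in low Se. MSTRG.118470.2 (53825605 to 53826525, 357 bases) had 0.671, 2.21 and 1.71 FPKM in high Se and 1.66, 0.295 and 0.181 FPKM in low Se. Other forms of the locus gave it 2.36, 1.19 and 1.67 FPKM in control leaves. Over all forms the sum was 12.9, 6.99 and 3.04 in low Se and 3.81, 10.5 and 8.18 in high Se. The locus was therefore listed in all control libraries. Its sum was lower there than in any selenite library, but the 2 selenite-only forms were at 0 in control by the selection. The most abundant other form, MSTRG.118470.3, had 1.45, 1.19 and 1.13 FPKM in control leaves. It had 1.47, 4.20 and 1.47 FPKM in low Se and 1.37, 0.929 and 2.69 FPKM in high Se, overlapping control.

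Pairs of nearby selenite-only transcripts were counted without a background of randomly placed transcripts, so neither closeness nor dispersal is claimed. Apart from the pairs within a locus, 3 pairs lay within 10 kb of each other and 6 within 100 kb. The intergenic MSTRG.61783.1 (21821582 to 21821824) and MSTRG.61787.1 (21831443 to 21831685) on chromosome 3.4 are both 243 bases long. MSTRG.61783.1 had 1.31, 0.737 and 1.53 FPKM in high Se and 2.74, 0.781 and 2.01 FPKM in low Se. MSTRG.61787.1 had 1.30, 0.744 and 1.73 FPKM in high Se and 3.68, 0.783 and 2.06 FPKM in low Se, nearly the values of the first. On chromosome 3.3, MSTRG.56697.1 (36325985 to 36326967) and MSTRG.56701.1 (36332194 to 36333176) are both 983 bases long.

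This second pair of equal length was close in level as well. MSTRG.56697.1 had 1.95, 0.822 and 1.20 FPKM in high Se and 0.0563, 0.490 and 0.652 FPKM in low Se, and MSTRG.56701.1 had 2.36, 1.01 and 1.11 FPKM in high Se and 0.0557, 0.935 and 0.631 FPKM in low Se. All 3 high Se values of MSTRG.56697.1 lay above its low Se values, with a limma adjusted p of 0.797. Whether the members of either pair share sequence was not tested, as no genome was used here, and each pair may not be 2 independent observations. The remaining pair, the sense-overlapping MSTRG.153673.1 (host gene MS.gene020122, chromosome 8.3, 77407702 to 77500203) and the intergenic MSTRG.153655.1 (77500537 to 77500766), lay 334 bases apart. MSTRG.153673.1 had 1.12, 0.664 and 2.77 FPKM in high Se and 0.939, 3.37 and 1.499 FPKM in low Se, and MSTRG.153655.1 had 1.01, 0.247 and 1.97 FPKM in high Se and 1.41, 1.39 and 0.549 FPKM in low Se.

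The levels of neighbouring lncRNAs did not enter the selection, but they come from the same libraries, including the control libraries it asked to be at 0. Transcripts of other loci that overlap a selenite-only one are counted as neighbours too. Within 10 kb of a selenite-only transcript lay 294 transcripts of other loci, and 133 of the 190 had such a neighbour. Of the values of these neighbours, 42.9% were above 0 in control leaves, 57.6% in low Se and 63.6% in high Se, while over all transcripts the shares were 46.5%, 47.6% and 54.3%. In all 3 libraries of a group at 0 were 28.6% of the neighbours in control leaves, 13.9% in low Se and 13.3% in high Se, beside 25.1%, 25.6% and 21.3% of all transcripts. The neighbours were thus listed somewhat less often than all transcripts in control and more often in selenite leaves, a comparison with no test.

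The difference was also read by distance, without a test. The median difference of selenite from control on the log2(FPKM + 0.1) scale was 1.12 for the 119 neighbours under 1 kb away, 0.79 for the 175 at 1 to 10 kb and 0.30 for the 517 at 10 to 50 kb, against 0.32 over all transcripts. Among 69 other transcripts that share a host gene with a selenite-only one, the same median was 0.91. None of the 223 neighbours within 10 kb that passed the filter was called by limma in low Se or high Se against control. At an unadjusted p below 0.05, limma gave 27 that were higher and 4 that were lower in low Se than in control leaves, of 223, beside 4.3% and 4.13% of all tested. For high Se against the same control libraries the counts were 26 and 5, beside 6.11% and 3.15%. Adjacent transcripts can be pieces of 1 RNA, so neighbours are not independent of the transcripts they lie beside. A lower level in control can thus follow from the selection itself, and the unadjusted counts are description only.

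**Figure D5:**
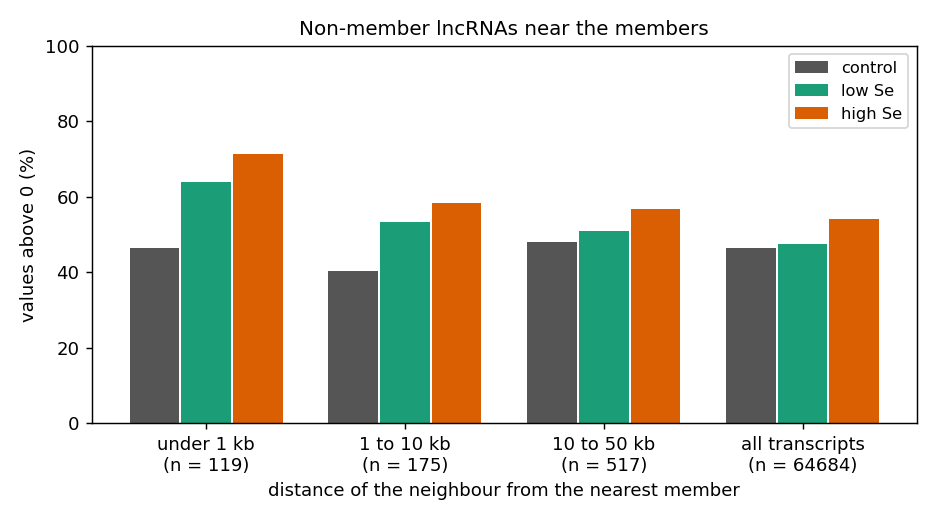
Share of values above 0 in control leaves, low Se and high Se libraries, for transcripts of other loci by their distance from the nearest selenite-only transcript and for all 64684 transcripts. Under 1 kb the share is 46.5% in control leaves, 63.9% in low Se and 71.4% in high Se. At 1 to 10 kb it is 40.4%, 53.3% and 58.3% in the same order. At 10 to 50 kb it is 48.0%, 51.0% and 56.7%, near the shares over all transcripts.

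The counterpart selections showed the matching pattern around their own transcripts. Within 10 kb of the 129 transcripts listed at 0 in low Se alone, the 165 neighbours were above 0 in 56.0% of control values, 43.2% of low Se values and 63.4% of high Se values. Within 10 kb of the 38 transcripts at 0 in high Se alone, the 55 neighbours were above 0 in 61.8%, 58.2% and 48.5% of values in the same order of groups. A lower share in the group at 0 was therefore not particular to the selection on control.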

How the data were processed

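The 9 libraries and their groups were taken from the labels. Per the labels' protocols, libraries were made from rRNA-depleted total RNA (RIN above 7) with dUTP marking of the second strand. The tools named in the submitters' processing notes are edgeR, StringTie, Bowtie2 and HISAT2, without roles or versions. The build was not given in the sources used here. Per the file headers, the deposited values are FPKM, already scaled by the authors for length and depth, and mean coverage, a signal with no such scaling for depth. The authors' table lists 0.0001 in place of 0; it was set to 0, also for 3 values outside the 190 whose coverage was not 0.0001. The CPC and CNCI columns are deposited coding scores and entered no test. The class codes were taken to mean intergenic (u), intronic (i), junction-sharing (j), sense-overlapping (o) and antisense (x). Aligned bases are the ratio of coverage to FPKM, and estimated reads are coverage times length divided by 141.

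All 9 libraries entered 1 fit of log2(FPKM + 0.1) with limma 3.58.1 (R 4.3.3, trended variance), limited to 43763 transcripts at a mean of at least 0.5 FPKM. P-values were adjusted by Benjamini-Hochberg over all of them and called below 0.05. The fit was also run, without the filter, on simulated normal values with added changes, and the outcome is not given here. That simulation did not copy the selection at 0 in control, so it does not bear on the selenite-only transcripts. Neighbours are transcripts of other loci within 10 kb. Python 3.11.15, NumPy 2.4.6, pandas 2.3.3 and matplotlib 3.10.9 were used for the rest.

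The transcripts, lists and tests were chosen with earlier results of these data known. Named are the 8 most abundant, up to 4 per direction with the largest difference between separate doses, the 4 most even, the most abundant of each class, the 3 with the most exons, the 3 nearest the threshold, those called against control, the nearest pairs and those with abundant other forms. MSTRG.98746.2 and the companion forms were chosen after their values were seen. Alternatives covered the threshold, pseudocount, filter, scaling, variance model, samples in the fit, replicate block and each library left out. Coding scores and sequences were not reported because they bear on no comparison or were not at hand.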

Additional observations from a re-analysis of the deposited data

How the results depend on the processing

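The number of 190 transcripts was 190 with a threshold of 0.25 FPKM or median-of-ratios scaling, 186 with values up to 0.1 FPKM read as 0, 171 with a threshold of 1 FPKM and 64 with one of 2 FPKM. It was 178 with values under 1 estimated read taken as 0, an alternative chosen after seeing the data; these were 152 of the 190 and 26 others, so that 38 dropped out. It was 254 to 650 with 1 library left out. For high Se against low Se the count of 9 called transcripts was 22 with a pseudocount of 1 FPKM, 1 with a pseudocount of 0.01 FPKM or a mean of at least 2 FPKM, 21 in a fit of the 6 selenite libraries alone and 0 in limma with an untrended variance, where 4029 had an unadjusted p under 0.05. It was 0 to 23 with 1 library left out: 0 without any 1 high Se library, 23 without low Se 1 and 14 without control 1. The selenite-only transcripts called in this comparison were 0 throughout, and those with a positive difference numbered 78 to 95 with 1 library left out and 18 of the 37 tested at a mean of at least 2 FPKM, where fewer were tested. Their median difference was -0.26 to 0.03 with 1 library left out. The cause of the other changes was not tested.

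Against control, the calls at low Se became 19 with a pseudocount of 1 FPKM, 35 without the filter and 2 to 30 with 1 library left out, and at high Se 36, 27 and 1 to 30. Alternatives chosen after seeing the data gave 1 at low Se and 6 at high Se with an untrended variance, 9 and 1 with a pseudocount of 0.01 FPKM, 6 and 2 at a mean of at least 2 FPKM, and 12 and 9 with median-of-ratios scaling. Of these calls, selenite-only transcripts were 0 and 0, 2 and 0, 1 and 0, and 2 and 1, in the same order. Of the selenite-only transcripts, 7 were called at low Se and 3 at high Se without the filter, 0 at high Se with a pseudocount of 1 FPKM, and 0 to 3 and 0 to 1 with 1 library left out. The replicate numbers are shared by the groups. Deviations of same-numbered libraries from their group means correlated at -0.03 to 0.00, against -0.03 to 0.03 for the others. No sign of pairing by number was seen, which does not exclude one. With the replicate block, 2 transcripts were called between the doses, 10 in low Se and 4 in high Se against control, of which 0, 2 and 0 were selenite-only; the median difference between the doses was -0.10 and 87 were positive.

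Depth limits single values: the median of the lowest selenite library was 2.15 estimated reads, so listings of 0 and values near 1 read carry little weight alone.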
